A study of Rattus norvegicus with 56 samples.

Results

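The genes described here are 35 genes of myelin and of the oligodendrocyte lineage, chosen as symbols: proteins of the myelin sheath, enzymes of myelin lipids, transcription factors of the lineage, genes of its precursors and newly formed cells, and other genes enriched in these cells. Array probes were matched to the symbols through RefSeq, and the brightest probe of each gene was used, which gave 34 of the 35 among 16581 genes named on the array. Plekhh1 had no matched probe. The study asked how gene expression in the brain differs after intermittent theta burst stimulation (iTBS), in which a coil over the head gives magnetic pulses in short, repeated bursts. The animals were male Long-Evans rats, either young (Y, 6 to 7 months) or aged (26 to 27 months), and, per the labels, performance in a water maze separated the aged rats with intact learning (AU, aged-unimpaired) from those with poor learning (AI, aged-impaired). All rats were lightly anesthetized with isoflurane and dexmedetomidine and then given Antisedan, which reverses dexmedetomidine. Each received either 1 session of iTBS, with the field directed at the axons of the corpus callosum, or sham stimulation with the coil held away from the head. At 48 h after the session, dorsal hippocampus and parietal cortex that had lain under the coil were dissected from every rat, and each was hybridized to a one-color array. The 24 rats made up 6 groups, namely 4 Y_Sham, 4 Y_iTBS, 4 AU_Sham, 5 AU_iTBS, 4 AI_Sham and 3 AI_iTBS. The tissue was not sorted, so a lower signal from fewer oligodendrocytes and one from less RNA per oligodendrocyte cannot be told apart.

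Oligodendrocytes are the cells that wrap axons of the central nervous system in myelin, a stack of membrane rich in galactolipids and cholesterol and held together by a small set of abundant proteins. They arise from precursor cells that carry the growth factor receptor PDGFRA and the proteoglycan NG2, pass through a short-lived newly formed stage marked by GPR17, ENPP6 and BCAS1, and then mature under SOX10, OLIG2 and MYRF. New oligodendrocytes continue to form in the adult brain, and neuronal activity is known to act on their precursors, which is why the lineage is of interest after brain stimulation.

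Levels are given as normalized log2 signal, on which 0 is the mean of an array, and levels of different probes are not compared with each other. A difference of 1 is close to a doubling. It is not exactly so, since arrays with SDs of 3.92 to 4.34 were scaled to a common SD, and folds are approximate. No probe of the 34 was saturated on any array. All of them but Tmem125 were well above background in every animal measured in both regions. Tmem125, a membrane protein gene enriched in the lineage, was well above background in 0 of 24 animals in hippocampus and 4 of 24 in cortex, so no fold is given for it and ranges below leave it out. The hippocampal spot of Mbp was unusable in AI_iTBS 3, and that of Cryab in AU_iTBS 3. For the 6 technical repeats that were kept, values of a gene differed from the rat's first array by a median of 0.045 to 0.19 in absolute size. The first arrays of a rat's hippocampus and cortex never lay on the same slide (0 of 24 rats), and 4 of the 7 slides held both regions. Comparing the 12 sham rats, 5 of 9 hippocampal marker genes were called higher in hippocampus and 7 of 10 cortical markers were called higher in cortex, where called means an adjusted p under 0.05 in limma. Of the markers of other cells, 8 of 9 for choroid plexus and ependyma, 4 of 10 for astrocytes, 3 of 12 for microglia and 4 of 12 for neurons were called higher in hippocampus, where 19.2% of all probes were. Called lower there (16.7% of all probes) were 3 of 5 for blood, 3 of 9 for endothelium and 5 of 10 for leptomeninges and Schwann cells, with 1 of the last higher. The precision of each value is limited by the number of arrays.

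Promoters of 27 of the 35 genes were found in a RefSeq table of the rat assembly GRCr8. Printed here are 3 of them, as the 150 bases before the annotated start, in the direction of transcription. Opalin, a membrane protein of mature oligodendrocytes, and Cnp, a myelin-associated phosphodiesterase, followed the other structural genes from animal to animal, whereas Enpp6, a choline phosphodiesterase of newly formed oligodendrocytes, did not, as described below. Opalin lies on the minus strand at chr1:249858191-249858340, Cnp on the plus strand at chr10:86011354-86011503 and Enpp6 on the minus strand at chr16:52026729-52026878. Capitals mark every match, on either strand, to ACAAAG or ACAATG (SOX-type), CAGCTG (an E-box), TATAAA or GGGCGG.
Opalin: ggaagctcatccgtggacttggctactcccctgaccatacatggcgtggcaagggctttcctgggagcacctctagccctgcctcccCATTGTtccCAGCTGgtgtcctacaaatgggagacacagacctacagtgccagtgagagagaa
Cnp: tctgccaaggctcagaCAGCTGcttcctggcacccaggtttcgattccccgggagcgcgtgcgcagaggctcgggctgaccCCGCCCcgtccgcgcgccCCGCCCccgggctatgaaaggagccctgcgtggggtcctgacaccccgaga
Enpp6: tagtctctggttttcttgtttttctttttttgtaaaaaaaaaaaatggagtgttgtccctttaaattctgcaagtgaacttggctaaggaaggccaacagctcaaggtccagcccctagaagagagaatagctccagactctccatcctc
The Opalin window held 1 SOX-type match and 1 E-box at a GC content of 57.3%. The Cnp window held 1 E-box and 2 GGGCGG matches at 71.3% GC. None of these letters occurred in the Enpp6 window, which had 40.7% GC. Over the 27 genes, CAGCTG was found in 3 (Cnp, Opalin and Aspa; 11.1%), against 7.63% of 33469 promoters in the table. GGGCGG was found in 10 (37%), against 26%, ACAAAG in 2 (7.41%), against 9.75%, ACAATG in 1 (3.7%), against 6.94%, and TATAAA in 2 (7.41%), against 8%. These matches are descriptions of the letters in the windows.

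Hippocampus carried more signal than cortex for nearly all of these genes. In the 12 sham rats, compared within each rat, 26 of the 34 genes were called higher in hippocampus (limma), 7 were not called, and Tmem125 was called but had only background-level signal in hippocampus. The median difference over the 34 genes was 0.552, against 0.0257 over all 33770 probes tested. The regions differed widely, with 35.9% of all probes called and 19.2% called higher in hippocampus. Over all 24 rats the median was 0.601, and 31 genes were called higher in hippocampus, where 26.3% of probes were called higher and 49.4% in either direction. Between 21 and 32 of the genes measured were higher in hippocampus in 23 of the 24 rats, while in AI_Sham 4 only 6 of 33 were, with a median difference of -0.31 in that animal.

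Of the 11 genes of myelin and its membranes, 10 were called higher in hippocampus of the sham rats, with a median difference of 0.611. Mog, a surface protein of the outermost myelin layer, had within-rat differences from -0.35 to 1.98 with a median of 0.80 and was higher in hippocampus in 23 of 24 rats. Its mean over the sham rats was 6.13 in hippocampus and 5.40 in cortex, a difference of 0.73 ± 0.148 (SE, n = 12; 1.66-fold; adjusted p = 0.000524, limma). Cnp differed by -0.46 to 1.82 with a median of 0.72 and was higher in 22 of 24 rats, and in sham rats its mean difference was 0.68 (95% interval 0.41 to 0.95; adjusted p = 0.000282). Gjb1, a gap junction protein of oligodendrocytes, had the largest sham difference of the structural genes, 0.83 (0.49 to 1.17), and was higher in 20 of 24 rats. Ermn, a cytoskeletal protein of mature oligodendrocytes, Mobp, a small basic protein of compact myelin, and Opalin differed by 0.68, 0.66 and 0.57. Cldn11, the tight junction protein of myelin, Mal, a raft proteolipid, Tspan2, a tetraspanin, and Mag, the adhesion protein facing the axon, differed by 0.61, 0.56, 0.46 and 0.38.

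Mbp, the basic protein that binds the inner faces of the myelin membrane, was the exception among the structural genes. Its within-rat differences ran from -1.27 to 0.30 with a median of -0.19, and hippocampus was higher in 6 of the 23 rats measured in both regions. In sham rats the mean was 10.45 in hippocampus and 10.72 in cortex, a difference of -0.27 ± 0.128 that was not called (adjusted p = 0.104, limma). Over all rats Mbp was called lower in hippocampus, by -0.35 ± 0.0961 (adjusted p = 0.00472). That call was lost under quantile normalization (-0.11, adjusted p = 0.0579) and with slide as a random block (-0.37, adjusted p = 0.0516). A second, dimmer Mbp probe differed by -0.59 in the sham rats, in the same direction. For Mog, Mobp, Cldn11 and Mag, each further probe of the gene was higher in hippocampus, as the brightest one was.

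**Figure D1:**
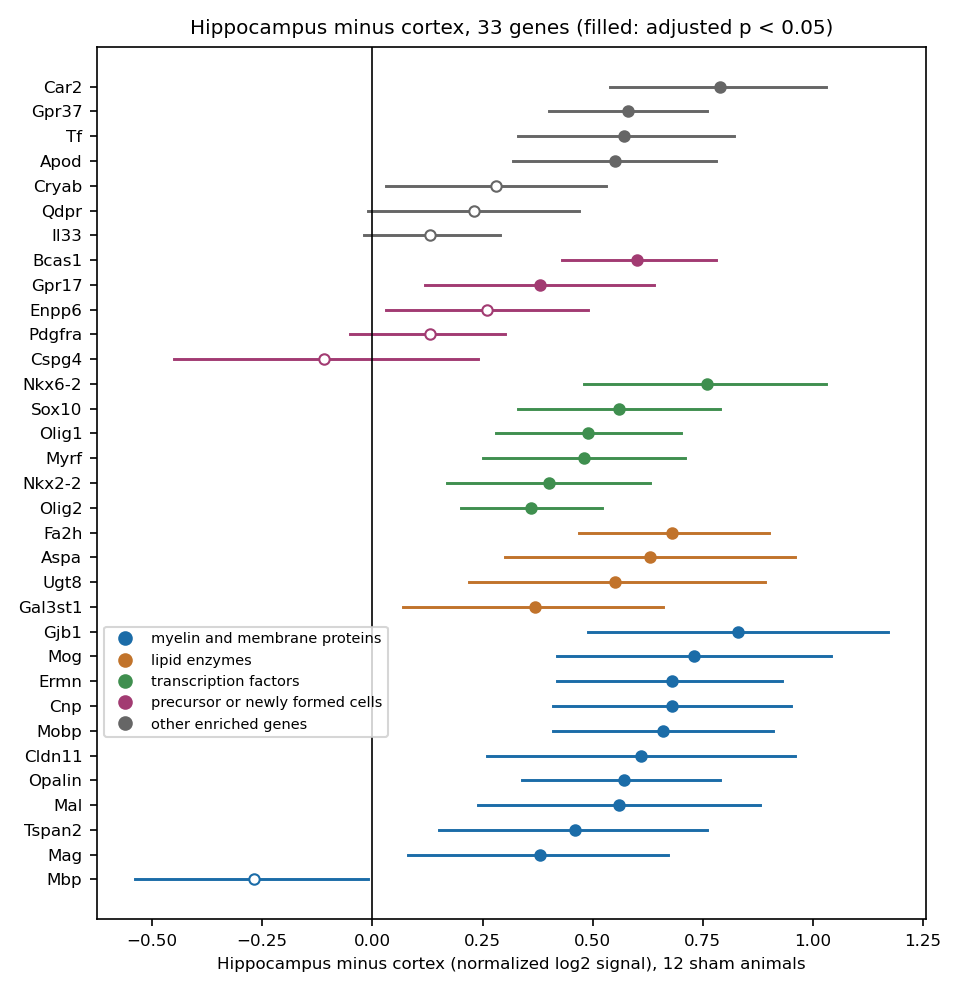
Hippocampus minus cortex (x axis, normalized log2 signal) in the 12 sham rats for 33 genes (y axis), grouped by role in color, with points at the mean within-rat difference, lines at its 95% interval and filled points where the adjusted p is under 0.05. Most intervals lie to the right of 0, Gjb1 is farthest right at 0.83, and Mbp and Cspg4 are the points left of 0.

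The enzymes of myelin lipids followed the structural genes, with 4 of 4 called higher in hippocampus of the sham rats and a median difference of 0.592. Fa2h, which hydroxylates the fatty acids of myelin galactolipids, was higher in 22 of 24 rats and differed by 0.68 (95% interval 0.47 to 0.90; adjusted p = 2.5e-05, limma). Aspa, which releases acetate from N-acetylaspartate, Ugt8, which makes galactosylceramide, and Gal3st1, which sulfates it, differed by 0.63, 0.55 and 0.37.

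All 6 transcription factors were called higher in hippocampus of the sham rats, with a median difference of 0.485. Nkx6-2, a homeobox factor of maturing oligodendrocytes, differed by 0.76 (95% interval 0.48 to 1.03), and Sox10, under which the cells mature, by 0.56 (0.33 to 0.79; adjusted p = 0.000388, limma). Olig2, present from precursor to mature cell, had within-rat differences from -0.32 to 1.08 with a median of 0.45 and was higher in hippocampus in 23 of 24 rats, with a sham difference of 0.36 ± 0.078 (1.28-fold; adjusted p = 0.000988). Olig1, Myrf, the factor that switches on myelin genes, and Nkx2-2, which acts early in differentiation, differed by 0.49, 0.48 and 0.40.

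Genes of precursors and newly formed cells were less uniform, with 2 of 5 called higher in hippocampus of the sham rats and a median difference of 0.26. Bcas1, found in oligodendrocytes that are starting to make myelin, was higher in hippocampus in all 24 rats, by 0.15 to 1.19 with a median of 0.62. Its sham means were 6.07 and 5.47, a difference of 0.60 ± 0.0837 (adjusted p = 7.0e-06, limma), the smallest p of the 34 genes. Gpr17, a receptor of cells committed to differentiate, was higher in 20 of 24 rats and differed by 0.38 ± 0.124 (adjusted p = 0.0198). Enpp6 was higher in 19 of 24 rats, at a sham difference of 0.26 (0.03 to 0.49; adjusted p = 0.0706). Pdgfra differed by 0.13 (-0.05 to 0.30; adjusted p = 0.26) and Cspg4, which encodes NG2, by -0.11 (-0.45 to 0.24; adjusted p = 0.654), and neither was called.

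Of the remaining enriched genes, Car2, a carbonic anhydrase, was higher in hippocampus in all 24 rats, by 0.06 to 1.78, and its sham difference was 0.79 ± 0.117 (1.73-fold; adjusted p = 1.6e-05, limma). Gpr37, a receptor of differentiating oligodendrocytes, Tf, the iron carrier transferrin, and Apod, a lipid carrier, were also called, with differences of 0.58, 0.57 and 0.55. Cryab, a small heat shock protein, Qdpr, which recycles tetrahydrobiopterin, and Il33, an alarmin cytokine, differed by 0.28, 0.23 and 0.13 and were not called.

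Both age classes held the difference. In Y_Sham alone 18 of the 34 genes were called, where 19.4% of probes were, with a median of 0.666, and in AU_Sham and AI_Sham together 19 were called, where 26.2% of probes were, with a median of 0.445. Leaving out Y_Sham 2 reduced the former to 7 genes, and leaving out AU_Sham 4 the latter to 10. In 1 rat whose regions were also hybridized side by side, Y_Sham 3, the median difference was 0.529 on each of 2 slides, with 29 and 32 of 33 genes higher in hippocampus. Across all arrays of the 4 slides with both regions, the medians ran from 0.324 to 0.711. With slide as a fixed block 11 genes were called in the sham rats, at a median of 0.463, and with slide as a random block 22, at 0.514. Shares of all probes called were not taken for the omissions or slide blocks. The lower counts therefore cannot be read as particular to these genes. Choroid plexus and ependymal markers moved with the same comparison, since their mean level was -0.11 to 2.65 in the hippocampus of sham rats and -1.44 to 0.39 in their cortex, and their part in the result was not tested.

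Other genes of the lineage lay the same way. Of 44 further oligodendrocyte genes, 29 were called higher in hippocampus of the sham rats and 3 lower, with a median of 0.472. Efnb3, an ephrin, and St18, a zinc finger factor, were 1.53 ± 0.127 and 1.58 ± 0.17 higher (adjusted p = 4.8e-09 and 2.2e-07, limma), and Pmp22, a myelin protein best known from peripheral nerve, was 0.71 higher. Of 15 further precursor genes, 7 were called higher and 2 lower, and the 3 of smallest p were Neu4, a sialidase, C1ql1, a secreted C1q-like protein, and Bmp4, a growth factor, at 0.71, 0.91 and 0.69. Genes of sterol and sphingolipid synthesis, which every cell type uses, had 3 of 22 called higher in hippocampus and 5 lower, shares near those of all probes (19.2% and 16.7%). Hmgcs1 and Insig1, both of the cholesterol pathway, lay lower in hippocampus, at differences of -0.54 and -0.46.

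Within groups, most of the genes varied together from rat to rat. Each value was expressed as the deviation from the mean of its group, and each gene was set against the mean of 10 structural genes other than Mbp, leaving the gene itself out. The 24 points of a region share their scaling within an array and in part their slide, and correlations are descriptions. Over the 528 pairs of the 33 genes the median Pearson r was 0.39 in hippocampus and 0.42 in cortex, whereas the mean over all pairs of probes was 0.00477 and 0.00384. An r above 0.5 with the structural mean was found for 25 of 33 genes in hippocampus and 23 of 33 in cortex, against 4.43% and 6.14% of all probes.

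The highest r with the structural mean was that of Gpr37 in hippocampus and of Myrf in cortex, and Opalin was high in both regions. For Opalin r was 0.80 in hippocampus and 0.92 in cortex (Spearman's rho 0.81 and 0.88), and it stayed at 0.76 and 0.92 without the 2 most distant rats. Gpr37 had r of 0.90 and 0.73, and Myrf 0.67 and 0.93. Cnp had 0.62 in both regions, with rho of 0.43 and 0.60. Olig2 had 0.54 and 0.84. Gjb1, a structural gene, had only 0.33 and 0.35, and 0.04 in hippocampus without the 2 most distant rats. Of the precursor and newly formed cell genes, Cspg4 had 0.66 and 0.41 and Bcas1 0.50 and 0.53. Enpp6 ran the other way, with r of -0.19 and -0.39, as did Gpr17, at -0.27 and -0.13, and Nkx2-2, at -0.39 and -0.38. These dimmer probes also moved against Mog, Mobp and Cldn11 in 4 of the 6 technical repeats. In 1 repeat of the hippocampus of Y_Sham 3 Nkx2-2, Gpr17 and Enpp6 differed from the first array by -0.56, -0.31 and -0.27, and Mog, Mobp and Cldn11 by 0.24, 0.33 and 0.34. The repeat of the same kind in cortex gave -0.70, -0.54 and -0.51 against 0.12, 0.15 and 0.19. Over the 4 further repeats the ranges were -0.11 to 0.44 for Nkx2-2, Gpr17 and Enpp6 and -0.17 to 0.24 for Mog, Mobp and Cldn11. The part of such array differences in these correlations was not tested. Pdgfra had 0.62 in hippocampus and 0.02 in cortex. The brightest Mbp probe had 0.26 and -0.31, and the other Mbp probe -0.33 and -0.27, so that neither followed the other structural genes.

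**Figure D2:**
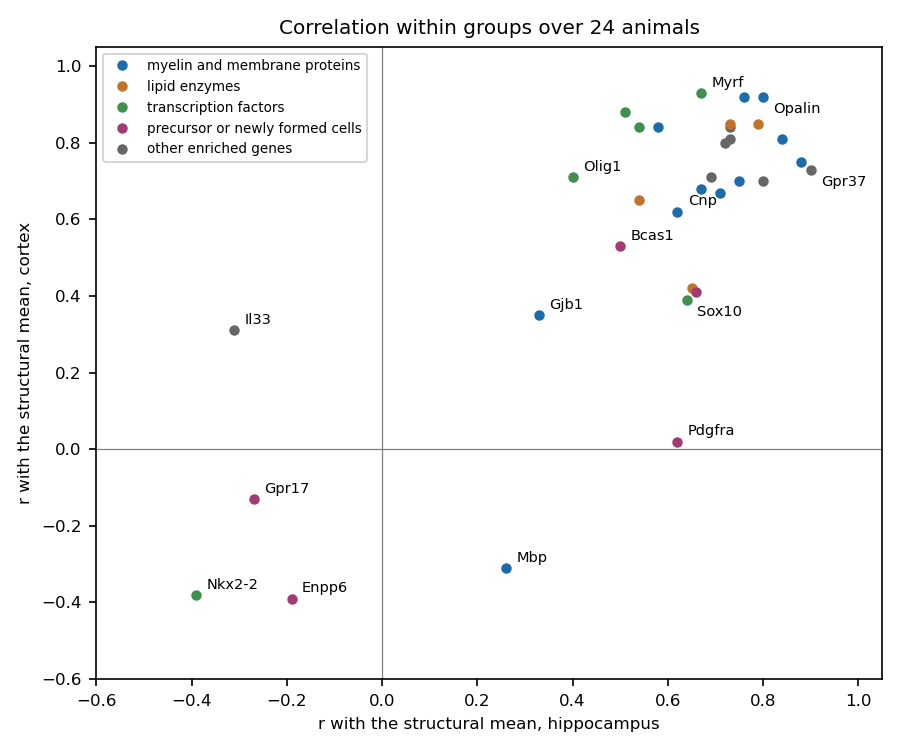
Pearson r of each of 33 genes with the mean of the structural genes over deviations from group means in 24 rats, in hippocampus (x axis) and cortex (y axis), colored by role. Most genes lie in the upper right, while Nkx2-2, Gpr17 and Enpp6 lie below 0 in both regions and Mbp lies at 0.26 and -0.31.

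iTBS was compared with sham within each group of rats to ask whether these genes differed 48 h after stimulation, and none was called in either region. In hippocampus 0 of 33 genes were called in Y, AU, AI and the aged rats together (limma), where 0% of probes were called in each. In cortex 0 of 34 were called, with 0% of probes called in Y, AU and the aged rats and 0.00613% (2 probes) in AI. At an unadjusted p under 0.05 the hippocampal counts were 0, 0, 0 and 1 gene for Y, AU, AI and all aged, against 4.51%, 2.29%, 1.95% and 2.48% of probes. In cortex they were 0, 3, 0 and 1 (Tmem125), against 2.7%, 8.38%, 4.09% and 2.92%. A selection rule was rebuilt here from the methods of the study, combining tests on z-scores, a false discovery rate and the size of the z-ratio. It need not select the probes that the study's own calculation did. The rebuilt rule selected 0 of the genes in each of the 6 comparisons of Y, AU and AI. It selected 12 to 59 of 45598 probes there (0.0263% to 0.129%). The study itself listed Enpp6 as higher after iTBS in young cortex, aged cortex and aged hippocampus, with aged rats as a single class. It also reported that induction of myelin-related genes did not reach significance in vivo at 48 h. Here the Enpp6 means with iTBS and sham were 0.92 and 1.06 in Y cortex, 1.42 and 1.02 in AU cortex and 1.12 and 1.29 in AI cortex. In hippocampus they were 1.45 and 1.38 in AU and 1.42 and 1.34 in AI. Enpp6 was not called in any of these comparisons.

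The mean level of the 10 structural genes overlapped between iTBS and sham in every group of rats. In hippocampus it was 5.87 ± 0.24 (SD, n = 4) in Y_Sham and 5.70 ± 0.03 (n = 4) in Y_iTBS, and the 4 stimulated rats all lay between 5.66 and 5.73. It was 5.79 ± 0.27 in AU_Sham and 5.82 ± 0.27 in AU_iTBS, and 5.72 ± 0.14 in AI_Sham and 5.91 ± 0.12 in AI_iTBS. In cortex the means were 5.08 ± 0.39 in Y_Sham and 4.92 ± 0.09 in Y_iTBS. The AU groups had 4.97 ± 0.30 (sham) and 5.15 ± 0.24 (iTBS), and the AI groups 5.50 ± 0.44 and 5.25 ± 0.27. In the AI hippocampus the 3 stimulated rats, at 5.83 to 6.05, overlapped the 4 sham rats, at 5.59 to 5.86, only at the edge.

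**Figure D3:**
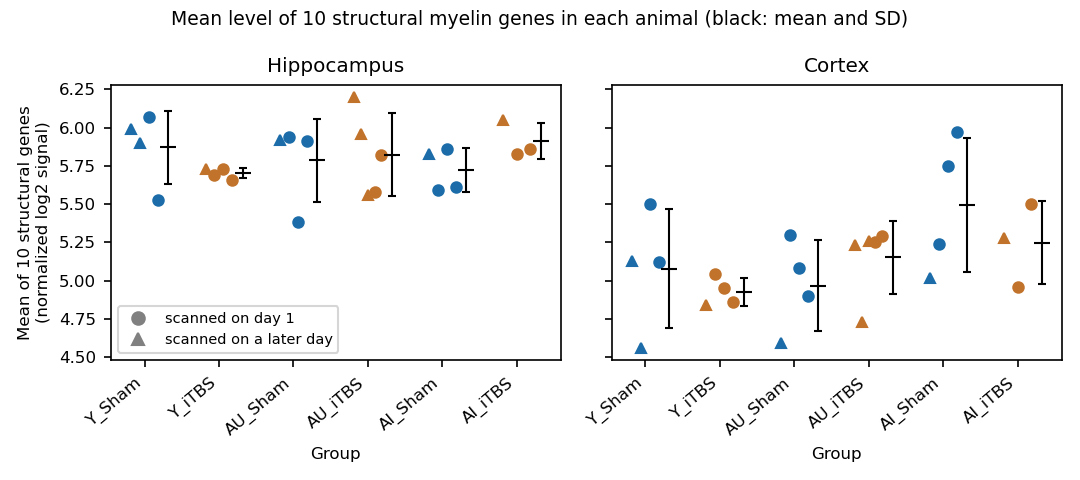
Mean normalized log2 signal of 10 structural myelin genes without Mbp (y axis) in each rat (points, circles scanned on day 1 and triangles later) of the 6 groups (x axis) in hippocampus and cortex, with the group mean and SD in black and stimulated groups in orange. Every hippocampal group mean lies above the cortical ones, stimulated and sham rats overlap in each pair, and the AI_Sham cortex has the widest spread at 5.50 ± 0.44.

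In young rats 9 of 33 genes lay above sham in hippocampus (45.9% of all probes were) and 6 of 34 in cortex (47.7%), and the medians were -0.0982 and -0.084. Since the genes vary together within groups, the number that lie on one side is not a count of independent observations. The cortical median turned to 0.0118 without Y_Sham 3, and with slide as a fixed block 16 of 34 genes lay above sham. In hippocampus, leaving out 1 rat gave medians of -0.175 to -0.0524. Mog in hippocampus measured 6.42, 6.59, 6.47 and 5.92 in Y_Sham and 6.37, 5.76, 5.89 and 5.82 in Y_iTBS. Of the 4 stimulated rats, 3 lay below all sham rats and 1 lay among them. The difference was -0.39 (95% interval -0.88 to 0.10; unadjusted p = 0.116, adjusted p = 0.931, limma), the smallest p of the genes in that comparison. Car2, Cryab, Gal3st1 and Mal followed, at -0.34, -0.31, -0.36 and -0.21. On the 2 hippocampal slides that held both young groups the medians were -0.0479 (3 rats against 2) and -0.162 (1 against 2). In cortex Apod, Mal, Cryab, Ugt8 and Gjb1 had the smallest p, at -0.35, -0.46, -0.32, -0.28 and -0.39, and the lowest unadjusted p was 0.15. Within the cortical slides the medians were -0.0668 (3 against 1) and 0.0792 (1 against 2). Olig2 and Pdgfra differed from sham by 0.00 and 0.03 in hippocampus and by -0.01 and 0.00 in cortex.

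In the hippocampus of aged rats 24 of 33 genes lay above sham in AU (49.5% of all probes), 28 in AI (51.3%) and 28 in all aged rats (49.8%), with medians of 0.0621, 0.128 and 0.0898. The last comparison is the mean of the others and shares their animals. The AU median turned to -0.029 without AU_Sham 3 and to -0.0386, with 12 of 33 genes above sham, in the rats scanned on day 1. Within slides the medians were 0.228 for AU (2 rats against 1) and 0.114 and 0.0779 for AI (2 against 3 and 1 against 1). Aspa measured 4.04, 3.55, 3.33 and 3.39 in AU_Sham and 4.04, 3.90, 3.68, 3.59 and 3.90 in AU_iTBS. It measured 3.87, 3.60, 3.72 and 3.52 in AI_Sham and 4.19, 3.78 and 3.75 in AI_iTBS. Sham and stimulated rats overlapped in both classes, and each class had 1 sham rat as high as most stimulated ones. The aged difference of 0.24 ± 0.103 (95% interval 0.02 to 0.45; unadjusted p = 0.0319) was not called (adjusted p = 0.978, limma).

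In the hippocampus of AI rats 3 of 33 genes, Olig2, Nkx6-2 and Sox10, did not overlap between groups, as was so for 2.36% of probes. Olig2 lay at 5.54 to 5.87 with iTBS and 5.45 to 5.53 with sham, Nkx6-2 at 5.39 to 5.68 and 5.19 to 5.35, and Sox10 at 6.16 to 6.30 and 6.00 to 6.16, touching within rounding. The Olig2 difference of 0.18 ± 0.136 had an adjusted p of 1 (limma). Mag, Ermn and Gpr37 differed by 0.29, 0.29 and 0.19 there, also with adjusted p of 1. Mbp differed by -0.32 (95% interval -0.88 to 0.23), with 1 stimulated rat not measured. Over the 33 genes the 95% intervals of the hippocampal differences reached from -0.88 to 0.57 in Y, from -0.51 to 0.77 in AU and from -0.88 to 0.85 in AI. Each end is that of the gene reaching farthest, and the intervals of single genes had half-widths of 0.20 to 0.58 over these comparisons.

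In the cortex of aged rats 21 of 34 genes lay above sham in AU, a share near that of all probes (55.4%), and 7 of 34 in AI (47.9%). The medians were 0.09 in AU and -0.167 in AI. Leaving out 1 rat gave AU medians from 0.0119 (without AU_iTBS 1) to 0.247 (without AU_iTBS 2). The AU count depended on scaling, with 27 of 34 above sham under quantile normalization (median 0.218) and 28 under 75th percentile scaling (0.169). The medians over all probes were then 0.00287 and -0.00237. With a replicate block 19 lay above sham. Nkx2-2 measured -1.12, -1.31, -1.53 and -1.55 in AU_Sham and -0.81, -0.43, -0.62, -1.25 and -0.99 in AU_iTBS. One stimulated rat lay within the sham range and 4 lay above it, and the difference of 0.56 ± 0.232 was not called (unadjusted p = 0.0263, adjusted p = 0.578, limma). Gpr17 measured -0.77, 0.45, 0.10 and -0.36 in AU_Sham and 0.11, 0.92, 0.57, -0.09 and 0.21 in AU_iTBS, with overlap, at a difference of 0.49 ± 0.234 (unadjusted p = 0.0498). The remaining gene of the 3 at that threshold was Tmem125. Gjb1 and Enpp6 were 0.66 and 0.40 above sham.

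In the AI cortex Cnp measured 5.00, 4.63, 5.40 and 5.43 in AI_Sham and 4.49, 4.23 and 5.29 in AI_iTBS. The groups overlapped through 1 stimulated rat, and the difference was -0.44 (95% interval -0.98 to 0.09; unadjusted p = 0.0988, adjusted p = 1, limma). Apod, Sox10, Gjb1 and Gpr17 differed by -0.44, -0.40, -0.60 and -0.38. The AI median turned to 0.0888 without AI_Sham 3 and AI_Sham 4, and to 0.168 in the animals scanned on later days. On the 2 cortex slides that held both AI groups the medians were -0.293 (2 rats against 3) and 0.168 (1 against 1). Over 33 genes the 95% intervals of the cortical iTBS differences reached from -1.14 to 1.14 in Y, from -0.83 to 1.33 in AU and from -1.36 to 0.85 in AI. The intervals of single genes had half-widths of 0.33 to 0.84 over these comparisons, wider than in hippocampus.

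**Figure D4:**
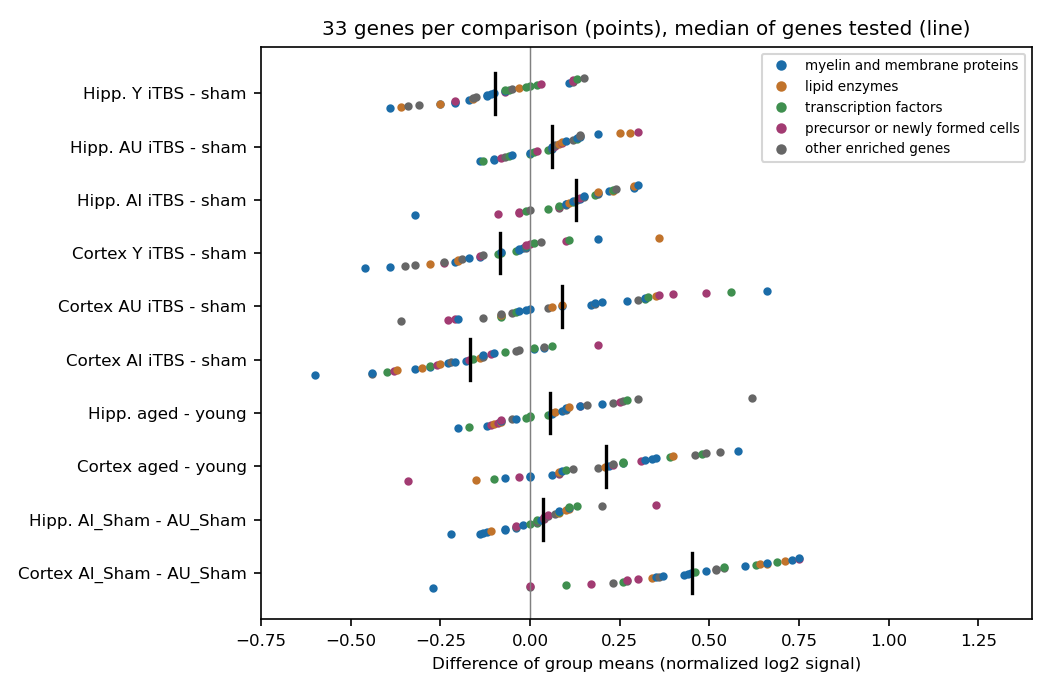
Difference of group means (x axis, normalized log2 signal) of 33 genes (points, colored by role) in the iTBS, age and cognitive status comparisons of each region (y axis), with the median of the genes tested as a black line. The iTBS medians lie between -0.167 and 0.128, and the AI_Sham minus AU_Sham median in cortex lies at 0.453.

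The differences between iTBS effects were tested directly. The aged minus the young effect in hippocampus had a median of 0.177 over 33 genes, and 0 were called (0% of probes, limma), with 2 at an unadjusted p under 0.05 (4.29% of probes), Aspa at 0.40 ± 0.176 and Gal3st1 at 0.65 ± 0.305. For cortex the median was 0.0713, with none of the genes called (0% of probes) and none below the unadjusted threshold (3.21%). The AI minus the AU effect in hippocampus had a median of 0.0423, with 0 called (0% of probes) and 0 at that threshold (1.71%). In cortex its median was -0.316, 0 of 34 were called (0.0123% of probes), and 3 had an unadjusted p under 0.05 (8.74%), which were Gjb1 at -1.26 ± 0.487, Gpr17 at -0.87 ± 0.354 and Sox10 at -0.73 ± 0.318. The cortex median was 0.0666 without AI_Sham 3 and AI_Sham 4. Between regions, 0 of 34 genes had a called difference in iTBS effect in Y, AU, AI or all aged rats, where 0% of probes were called, and 0, 1, 0 and 0 genes reached the unadjusted threshold (2.65%, 6.11%, 1.92% and 2.29% of probes).

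Age was compared over sham and stimulated rats together, 16 aged against 8 young. In hippocampus 1 of 33 genes was called, Cryab, which was higher in aged rats, where 0.511% of probes were called (limma). Cryab is a chaperone of oligodendrocytes that astrocytes also make. It measured 7.82, 8.07, 8.27 and 7.55 in Y_Sham and 7.39, 7.76, 7.75 and 7.56 in Y_iTBS. The 15 aged rats measured lay between 7.93 and 8.84, with 13 of them above all young rats but Y_Sham 3, and the lowest aged values were 7.93 in AU_iTBS 4 and 8.04 in AI_Sham 2. The group means were 8.39 and 7.77, a difference of 0.62 ± 0.124 (1.53-fold; 95% interval 0.36 to 0.87; adjusted p = 0.0269, limma). The call was lost without AI_iTBS 1, Y_Sham 1, Y_Sham 4, Y_iTBS 1 or Y_iTBS 4, with adjusted p of 0.0524, 0.0682, 0.0764, 0.0518 and 0.0694 and differences of 0.55 to 0.61. It was also lost after normexp background correction, at 0.72 (adjusted p = 0.055).

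Over all 33 genes, Cryab included, the median with age in hippocampus was 0.0559, and 7 had an unadjusted p under 0.05 (13.3% of probes), 6 of them higher in aged rats. Qdpr was 0.30 ± 0.104 higher, Myrf 0.27, Tf 0.26, Apod 0.23 and Il33 0.16, and Nkx2-2 was lower at -0.17 ± 0.0618, and none of these 6 was called. Mog, Olig2 and Sox10 differed by -0.04, 0.00 and 0.00. Microglial markers moved with age in this region, 3 of 12 being called higher, and their mean level was 5.04 to 5.30 in young rats and 5.22 to 5.63 in aged rats. For astrocyte markers 0 of 10 were called and 3 had an unadjusted p under 0.05, all higher. The part of either in the Cryab difference was not tested. In aged sham against young sham rats 0 of 33 genes were called in hippocampus (0.00308% of probes), and 3 reached the unadjusted threshold (8.18%).

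In cortex 0 of 34 genes were called with age (0.402% of probes, limma), while 28 lay higher in aged rats (47.8% of probes did) and the median was 0.213, against 0.132 in the rats scanned on day 1 and 0.133 in the others. A total of 9 genes had an unadjusted p under 0.05, all higher, where 7.8% of probes were higher at that threshold. Sox10 had the smallest p, at 0.48 ± 0.136 (unadjusted p = 0.00207, adjusted p = 0.154). In cortex Sox10 measured 5.24, 4.66, 5.51 and 5.25 in Y_Sham, 4.97, 5.29, 5.09 and 4.95 in Y_iTBS, 5.37, 5.49, 5.35 and 4.88 in AU_Sham, and 6.31, 5.39, 5.88 and 6.26 in AI_Sham. It measured 5.45, 5.74, 5.94, 5.07 and 5.80 in AU_iTBS and 5.51, 5.39 and 5.78 in AI_iTBS. The age classes overlapped, with 9 of the 16 aged rats within the young range of 4.66 to 5.51 and 7 above it. Apod, Tf, Cryab and Gjb1 followed at 0.49, 0.53, 0.46 and 0.58. Mbp, Mog, Olig2 and Pdgfra differed by 0.00, 0.00, 0.10 and -0.03. The age effect in hippocampus minus that in cortex was not called for any of the 34 genes (0.0237% of probes), with 3 at an unadjusted p under 0.05 (15.9%), namely Sox10 at -0.48 ± 0.166, Gjb1 at -0.66 and Cnp at -0.46, and for Cryab it was 0.15 ± 0.184.

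The comparison of cognitive classes among sham rats asked whether the genes differed between AI and AU without stimulation. In cortex 0 of 34 genes were called (0% of probes, limma), and the smallest adjusted p was 0.63. Yet 32 of 34 lay higher in AI_Sham (51.8% of probes did), with a median of 0.453 against 0.011 over all probes, and 14 had an unadjusted p under 0.05, all higher in AI_Sham, where 3.77% of probes were higher at that threshold and 6.44% in either direction. In hippocampus 0 of 33 were called (0% of probes), 22 lay higher (45.9% of probes), 0 had an unadjusted p under 0.05 (4.05%), and the median was 0.035.

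All 4 lipid enzymes lay higher in the cortex of AI_Sham, with a median of 0.647, as did all 6 transcription factors at 0.495, and 10 of 11 structural genes at 0.451. The 5 precursor or newly formed cell genes had a median of 0.267, with Pdgfra at 0.00. Ugt8 measured 5.30, 5.56, 5.99 and 6.21 in AI_Sham and 4.78, 5.25, 5.08 and 5.11 in AU_Sham. The groups did not overlap, and the difference was 0.71 ± 0.232 (95% interval 0.23 to 1.19; unadjusted p = 0.00602, adjusted p = 0.632, limma). Olig2 measured 5.13, 5.22, 5.35 and 5.81 in AI_Sham and 4.78, 4.99, 5.09 and 4.81 in AU_Sham, again without overlap, at 0.46 ± 0.17. Bcas1 measured 5.91, 5.77, 5.88 and 6.02 against 5.25, 5.35, 4.71 and 5.28, without overlap, at 0.75 ± 0.264. With Gjb1, 4 of the 34 genes did not overlap between these groups, as was so for 3.52% of probes.

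Other genes overlapped through 1 or more rats. Sox10, with the smallest p, measured 6.31, 5.39, 5.88 and 6.26 in AI_Sham and 5.37, 5.49, 5.35 and 4.88 in AU_Sham, a difference of 0.69 ± 0.221 (unadjusted p = 0.00541, adjusted p = 0.63, limma), and AI_Sham 2 lay within the AU_Sham range. Mog measured 5.11, 5.50, 5.89 and 6.28 against 4.63, 5.36, 5.08 and 5.08, at 0.66 ± 0.285, with AI_Sham 1 below 1 of the AU_Sham rats. Tspan2 and Fa2h differed by 0.75 and 0.64, and Cnp by 0.43. Gpr17 and Enpp6 lay 0.30 and 0.27 higher, Pdgfra differed by 0.00 (95% interval -0.35 to 0.36) and Mbp by -0.27 (-0.67 to 0.13), and none of these was called.

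**Figure D5:**
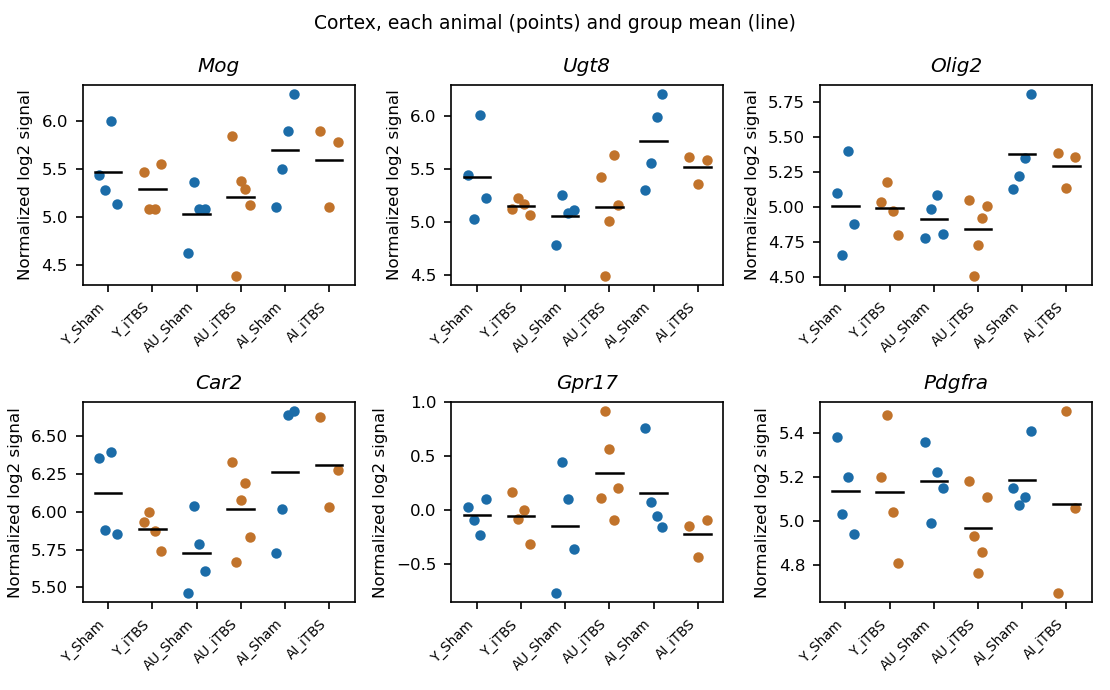
Normalized log2 signal in cortex (y axes) of Mog, Ugt8, Olig2, Car2, Gpr17 and Pdgfra in each rat (points) of the 6 groups (x axes), with lines at group means and stimulated groups in orange. Ugt8 and Olig2 of AI_Sham lie above all AU_Sham rats, from 5.30 against at most 5.25 for Ugt8, while Pdgfra and Gpr17 overlap between these groups.

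The size of this shift rested on particular rats. The mean of the structural genes in AI_Sham cortex was 5.02 and 5.24 in rats 1 and 2 and 5.75 and 5.97 in rats 3 and 4, and in AU_Sham it was 4.59 to 5.30. Leaving out AI_Sham 4 gave a median of 0.323 with 4 genes at an unadjusted p under 0.05, and leaving out any other rat kept the median at or below 0.571. Without AI_Sham 3 and AI_Sham 4 the median was 0.182, with 28 of 34 genes higher and 0 at that threshold. These rats had the highest choroid plexus and ependymal marker levels in the cortex of the sham groups, 0.04 and 0.39 against -1.44 to -0.28. Over that marker list 5 of 7 lay higher in AI_Sham, with a median of 0.804, while 3 of 12 neuronal markers did, with a median of -0.141, and the part of either was not tested. AI_Sham 4 was also the rat in which most genes lay lower in hippocampus than in cortex. The cortex arrays of AI_Sham 2, 3 and 4 lay on 1 slide and those of AU_Sham 2, 3 and 4 on another. For these rats class and slide cannot be told apart. On the 1 cortex slide with both groups (1 rat each) the median was 0.414. With slide as a fixed block over all rats, which draws on the other groups of these slides, it was 0.437, with 5 genes at the unadjusted threshold.

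Adding the stimulated rats gave 7 AI against 9 AU. In cortex 30 of 34 genes lay higher in AI (49.8% of probes), with a median of 0.317, and 12 had an unadjusted p under 0.05 (9.69% of probes), and 0 were called (0% of probes, limma). The 12 became 7 without AI_Sham 4, 2 without AI_Sham 3 and AI_Sham 4 (median 0.168), 3 and 5 with slide as a fixed and a random block, and 0 in the rats scanned on later days. Olig2 lay at 5.13 to 5.81 in AI and 4.51 to 5.09 in AU, without overlap (1 of 34 genes, and 0.0521% of probes), a difference of 0.46 ± 0.122 (1.37-fold; unadjusted p = 0.00123, adjusted p = 0.36). Ugt8, Tspan2 and Mog differed by 0.54, 0.55 and 0.52, and Enpp6 and Gpr17 by -0.02 and -0.13. In hippocampus 22 of 33 lay higher (47.3%), at a median of 0.0556, with 0 called (0.00308% of probes) and 0 at the unadjusted threshold (6.69%).

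Set against Y_Sham, which both classes share as controls, the cortex of AI_Sham had a median of 0.361, with 11 of 34 genes at an unadjusted p under 0.05 (8.08% of probes) and 0 called (0.0767%, limma). Without Y_Sham 2 the median was 0.218 with 1 gene at that threshold, and without AI_Sham 3 and AI_Sham 4 it was 0.132, also with 1. AU_Sham had a median of -0.0614, with 0 at that threshold (8.65%) and 0 called (0.0491%). Of the 44 further oligodendrocyte genes, 40 lay higher in AI_Sham than in AU_Sham in cortex, with a median of 0.389, 14 at an unadjusted p under 0.05 and 0 called. The 15 further precursor genes had a median of 0.166 with 1 at that threshold, and the 22 of sterol and sphingolipid synthesis 0.0358 with 0.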

How the data were processed

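Total RNA of hippocampus and parietal cortex was hybridized to one-color Agilent rat arrays by the authors and read with Feature Extraction 12.0.3.1. The deposited scanner files hold processed signal intensity per spot (background subtracted, not normalized between arrays), and the authors also deposited a table of z-scores, a score per feature and array that was used only as an alternative. Here the log2 processed signal was turned into a z-score over the non-control probes of each array, following the study's methods. The z-score was then scaled by 4.08, the mean of the arrays' SDs, to return close to log2 units. Spots marked as outliers were left out and copies of a probe averaged. Of 56 arrays, 48 were first arrays. Values of technical repeats and first arrays were averaged per rat and region, except for the cortex repeat of AI_iTBS 2, which resembled another rat more than its own first array, and 1 array with contradictory labels was not used. Groups came from the array titles, and replicate rats are separate animals.

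Probes well above background in at least 3 of 24 rats were tested, 32503 in hippocampus, 32613 in cortex and 33770 between regions. A linear model of 6 group means (18 residual degrees of freedom) was fitted to the 24 rats with limma 3.58.1 in R 4.3.3 (lmFit, eBayes), with two-sided p-values, Benjamini-Hochberg adjustment over all probes tested and calls at an adjusted p under 0.05. Regions were compared through within-rat differences. The model was checked on simulated data.

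The genes, the further lists (oligodendrocyte, precursor, sterol and sphingolipid synthesis) and the markers of neurons, astrocytes, microglia, endothelium, choroid plexus and ependyma, blood, leptomeninges and Schwann cells, hippocampus and cortex were chosen with earlier results of these data known, so no p is given for a list. Named were up to 12 called genes per comparison by smallest p, otherwise the 5 of smallest unadjusted p, together with Mbp, Mog, Cnp, Olig2, Pdgfra, Gpr17 and Enpp6, and up to 3 genes of each further list. Other genes are given to account for every member.

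Alternatives were quantile normalization, scaling to the 75th percentile, normexp background correction (offset 50, on median spot signal since no mean signal column was present), filters on dim probes, averaging of probes, handling of repeats, the z-scores, slide and scan day as blocks, a replicate block, and leaving out each rat. The scan-day subsets and the omission of AI_Sham 3 and AI_Sham 4 were chosen after seeing the data. Replicate numbers were not taken to pair rats. Deviations of rats with the same number had a mean r of 0.07 in hippocampus and 0.09 in cortex over 55 pairs, above 0.1 in 18 and 25. For rats with different numbers the mean r was -0.02 and -0.03. Rats numbered 1 all shared a slide within each region, so these values cannot settle whether numbers paired rats. By 500 variable probes, the cortex of 22 of 24 rats was best matched by its own hippocampus.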

Additional observations from a re-analysis of the deposited data

Results flagged for a closer look

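Within groups of 4 or 5 rats, the highest or lowest rat stood apart from the others in 17 of 330 gene and group combinations (5.15%), and chance gives about 1 in 20, so these are values to look at and no more. In hippocampus the Y_Sham group held 3 of them, with Mag low in rat 4 at 7.47, Qdpr low in rat 4 at 9.12 and Bcas1 high in rat 3 at 6.61. In AU_Sham hippocampus Mag was high in rat 4 at 8.45 and Tspan2 low in rat 3 at 6.27. In AI_Sham hippocampus Ermn was high in rat 1 at 3.74, Bcas1 high in rat 1 at 6.53 and Nkx2-2 high in rat 2 at -0.76. In AU_iTBS hippocampus Enpp6 was high in rat 3 at 1.65 and Tf high in rat 1 at 9.15.

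In cortex Mbp was high in Y_Sham 1 at 10.89, Cryab high in Y_Sham 3 at 8.27 and Olig1 low in Y_Sham 2 at 6.45. Myrf was low in Y_iTBS 1 at 6.99 and Apod high in Y_iTBS 2 at 7.01. Bcas1 was low in AU_Sham 3 at 4.71 and Cryab low in AU_Sham 1 at 7.56.

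The means over genes stood apart in 2 rats. The structural genes are part of all the genes, so these 2 means are not separate observations. In the hippocampus of AU_Sham 3 the mean of all the genes was low at 5.1 and that of the structural genes without Mbp low at 5.38, where the next rat had 5.91. In the cortex of AU_iTBS 2 the structural mean was low at 4.73, where the next rat had 5.23.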

How the results depend on the processing

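Of 1128 values that answer a comparison under an alternative setting, 1102 stayed within a set tolerance, and 26 moved. A count could change by a set ratio. A median could change by less than the SD between rats of the genes' median, which was 0.156 in hippocampus, 0.232 in cortex and 0.269 between regions. Thus 27 region calls in sham rats that became 22 with slide random did not count as moved. Nor did the median for iTBS in AU hippocampus, which went from 0.0621 to -0.0386 on day 1. Of the named genes' values, 2891 kept direction and side of the threshold, 38 lost and 6 gained a call, and 8 changed sign. Numbers of genes called with region: in sham rats 27 became 12 on later scan days and 11 with slide as a fixed block. In Y_Sham 18 became 0 on later days, 2 on scan day 1 and 3 with slide fixed. In aged sham rats 19 became 1 on later days, 12 on day 1, 8 with slide fixed and 11 with slide random. Fewer rats enter the scan-day subsets, and otherwise the cause was not tested. Shares of all probes called were not taken under the alternatives, so changed counts of calls cannot be read as particular to these genes. The Y_Sham median was 0.979 under normexp (0.666 otherwise) and the aged sham median 0.762 on later days (0.445). With age in hippocampus, the 1 call became 0 on later days, on day 1, under normexp and without AI_Sham 3 and AI_Sham 4, and 5 with slide fixed, which also gave 1 for AI_Sham minus Y_Sham. Cortex medians without AI_Sham 3 and AI_Sham 4 were 0.182 for AI_Sham minus AU_Sham, 0.0888 for iTBS in AI and 0.0666 for the AI minus AU iTBS effect, and 0.0387 for the regional difference of the AI iTBS effect. On later days they were 0.168 for iTBS in AI and 0.24 for iTBS in all aged rats. The AI minus AU iTBS effect then had -0.0746, and the regional difference of the AI iTBS effect 0.0378. Under normexp the AI minus AU iTBS effect in cortex had a median of -0.597. Signs turned with slide fixed in hippocampus for Mag (0.14) and Nkx2-2 (-0.06) in AI_Sham minus AU_Sham. They also turned there for Nkx2-2 under iTBS in AU (-0.03), and for Nkx2-2 (0.03) and Olig2 (-0.15) in the AI minus AU iTBS effect. In cortex AI_Sham minus AU_Sham turned for Pdgfra with slide fixed (-0.3) or random (-0.18) and for Mbp under quantile normalization (0.01). Leaving out 1 rat gave 23 to 27 region calls in sham rats, 7 (without Y_Sham 2) to 19 in Y_Sham, 10 (without AU_Sham 4) to 22 in aged sham rats, and 0 to 1 for age in hippocampus. For the aged minus young iTBS effect in cortex, Aspa then ranged from -0.79 to 0.09 (-0.47 with all rats). For the regional difference of the young effect, Aspa ranged from -0.79 to 0.03 (-0.52 with all rats) and Mal from -0.15 to 0.54 (0.25). Pdgfra ranged from -0.07 to 0.07 for AI_Sham minus AU_Sham in cortex. A replicate block, although the numbers were not taken to pair rats, gave 1 call with age in hippocampus and changed no count of calls. It gave 15 genes at an unadjusted p under 0.05 for AI_Sham minus AU_Sham in cortex. Regions treated as independent samples gave 26 calls in sham rats.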
